A study of Mus musculus with 2 samples.

Results

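The genes described here encode the DNA replication machinery, 42 genes picked by symbol among the 23288 genes of the deposited tables, and all 42 were found there. They were measured in RNA of cultured mouse splenic B cells from fetal liver chimeras, animals whose blood cells grow from transplanted fetal liver. The strain background was B6:129 backcrossed to B6. The study sequenced 1 library of Nedd4+/+ cells and 1 of Nedd4-/- cells, whose gene for the ubiquitin ligase Nedd4 is disrupted. Both cultures had received LPS and IL-4 for 72 hours. LPS is a bacterial cell wall component and IL-4 a cytokine, which together make B cells divide and switch to IgG1. Ribosomal RNA was depleted before sequencing. Neither the number of mice behind a library nor a second culture is given in the labels, so the differences below lack replicates and genotype was not tested. The labels do not say how much of the host's own blood cells remained in the chimeras.

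Replication starts at origins. The origin recognition complex (ORC), Cdc6 and Cdt1 load the ring-shaped Mcm2 to Mcm7 helicase on DNA before S phase, and geminin (Gmnn) blocks Cdt1 afterwards. Mcm10, Cdc45 and the GINS complex then turn the loaded ring into an active helicase. Polymerase alpha with primase starts each strand, polymerase epsilon extends the leading strand and polymerase delta the lagging strand. Replication factor C (RFC) loads the sliding clamp PCNA, replication protein A (RPA) covers single-stranded DNA, and Fen1 and Lig1 process and join Okazaki fragments. Ribonucleotide reductase (Rrm1, Rrm2) and thymidylate synthase (Tyms) supply deoxynucleotides. Activated B cells are among the fastest dividing mammalian cells and need this machinery to expand.

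The targeted gene, Nedd4, had a level of 7.59 RPKM with the Nedd4+/+ label and 1.95 RPKM with the Nedd4-/- label. RPKM is a level scaled to transcript length and library depth. The libraries held 8.40 and 6.17 gigabases of reads. They also differed in sex-linked RNA: Xist stood at 23.7 and 0.0958 RPKM and the Y-linked Ddx3y at 2.63 and 10.6 RPKM, and sex cannot be told apart from genotype. The Nedd4+/+ library held both RNAs, and whether its cells came from both sexes was not tested. Of the members only Pola1 lies on a sex chromosome, the X. All 8 B cell markers were present, from 4.73 to 183 RPKM in Nedd4+/+ and from 5.11 to 155 RPKM in Nedd4-/- cells. Summed levels of 8 T cell, 9 myeloid, 8 erythroid and 6 natural killer markers were 2.28, 2.10, 6.20 and 0.825 RPKM in Nedd4+/+ cells. In Nedd4-/- cells they were 3.02, 3.84, 4.64 and 1.48 RPKM, and no defining marker was at 0. Their part in the results was not tested. In such bulk samples fewer cells of a type and less RNA per cell cannot be told apart.

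All 42 replication genes were expressed, from 4.02 RPKM (Orc5) to 70.4 RPKM (Pcna) in Nedd4+/+ cells and from 2.99 RPKM (Orc5) to 59.6 RPKM (Pcna) in Nedd4-/- cells. The median over the genes was 14.9 RPKM in Nedd4+/+ and 11.3 RPKM in Nedd4-/- cells. The same 8 genes headed both libraries: Pcna, Mcm6, Mcm3, Mcm5, Fen1, Rrm2, Rrm1 and Rpa1. Orc5, Gins3, Orc1, Pole3 and Cdt1 were the 5 lowest in both. Log2 levels of the 42 genes in one library against the other gave a Pearson r of 0.986, a description over genes that share both libraries.

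**Figure D1:**
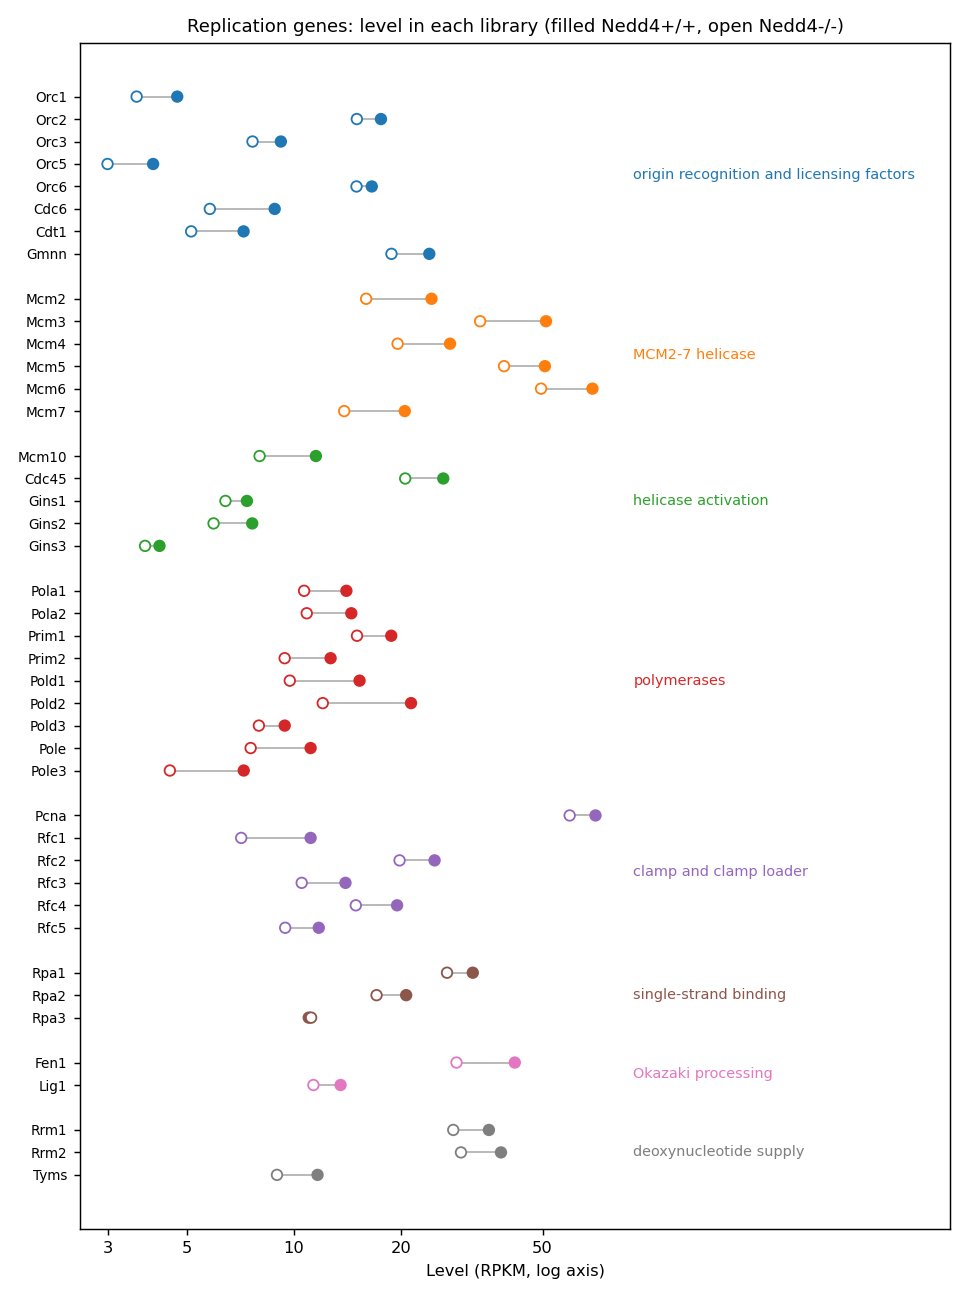
Level of each of the 42 replication genes in RPKM on a log axis, grouped by role, with filled points for the Nedd4+/+ library and open points for the Nedd4-/- library. Open points lie to the left of filled ones for all genes but Rpa3, and Pcna and Mcm6 are the highest in both libraries.

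Nearly every replication gene had a lower RPKM value in the Nedd4-/- library, and so did most other genes. The log2 ratio used here is that of Nedd4-/- over Nedd4+/+ RPKM with 1 RPKM added to each, and a mean of at least 1 RPKM let 9405 genes into the comparison. Its median was -0.35 over the replication genes and -0.31 over all 9405 genes. The ratio was below 0 for 41 of 42 replication genes, beside 92.7% of all genes. None of the 42 was at least 2-fold lower, beside 1.15% of all genes, and none at least 2-fold higher, beside 0.138%. After subtraction of the median of all genes, none was at least 1.5-fold lower or higher, beside 2.05% and 1.23%. Without a minimum level, 6 were at least 1.5-fold lower relative to the median of all 23288 genes, beside 5.43%. Of all 42, 28 lay below the median of the 9405 genes and 14 above, beside 50% of these genes below. With a minimum mean of 5 RPKM, 16 of the 39 genes left lay below the median of the genes left. Summed over the 42 genes, the level was 872 RPKM in Nedd4+/+ and 661 RPKM in Nedd4-/- cells, or 75.7%, where the sum over all genes was 77.9%. When each library was rescaled to the same sum, 24 genes were lower and 18 higher, beside 54.6% of all genes lower, and 19 of 42 lay below the median of all genes. Apart from the 6 and the 28, these counts lie near the shares of the whole table. The 6 were seen only without a minimum level, where the median of all 23288 genes was 0.02. The 28 became 19 of 42 or 16 of 39 under the settings above. None of these counts is taken as a result about replication genes.

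The read counts gave each ratio its own counting error. The genes were covered by 192 to 8356 read pairs in a library. Intervals given below are exact Clopper-Pearson 95% intervals of the ratio, without added RPKM, and cover counting error only. On that scale the median of all genes was -0.39. The interval lay wholly below this median for 13 replication genes, wholly above it for 8 and included it for 21. Of 9231 genes with a known length, 23.2% had an interval below the median and 18.8% one above. Of the 6399 with 192 to 8356 read pairs in each library, these shares were 26.9% and 21.3%. The counts of 13 and 8 lie near these shares and are not taken as a result about the group or the genes named. The 13 were Cdc6, Mcm2, Mcm3, Mcm4, Mcm6, Mcm7, Mcm10, Pold1, Pold2, Pole, Pole3, Rfc1 and Fen1. The 8 were Orc2, Orc6, Gins3, Pold3, Pcna, Rpa1, Rpa3 and Lig1.

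**Figure D2:**
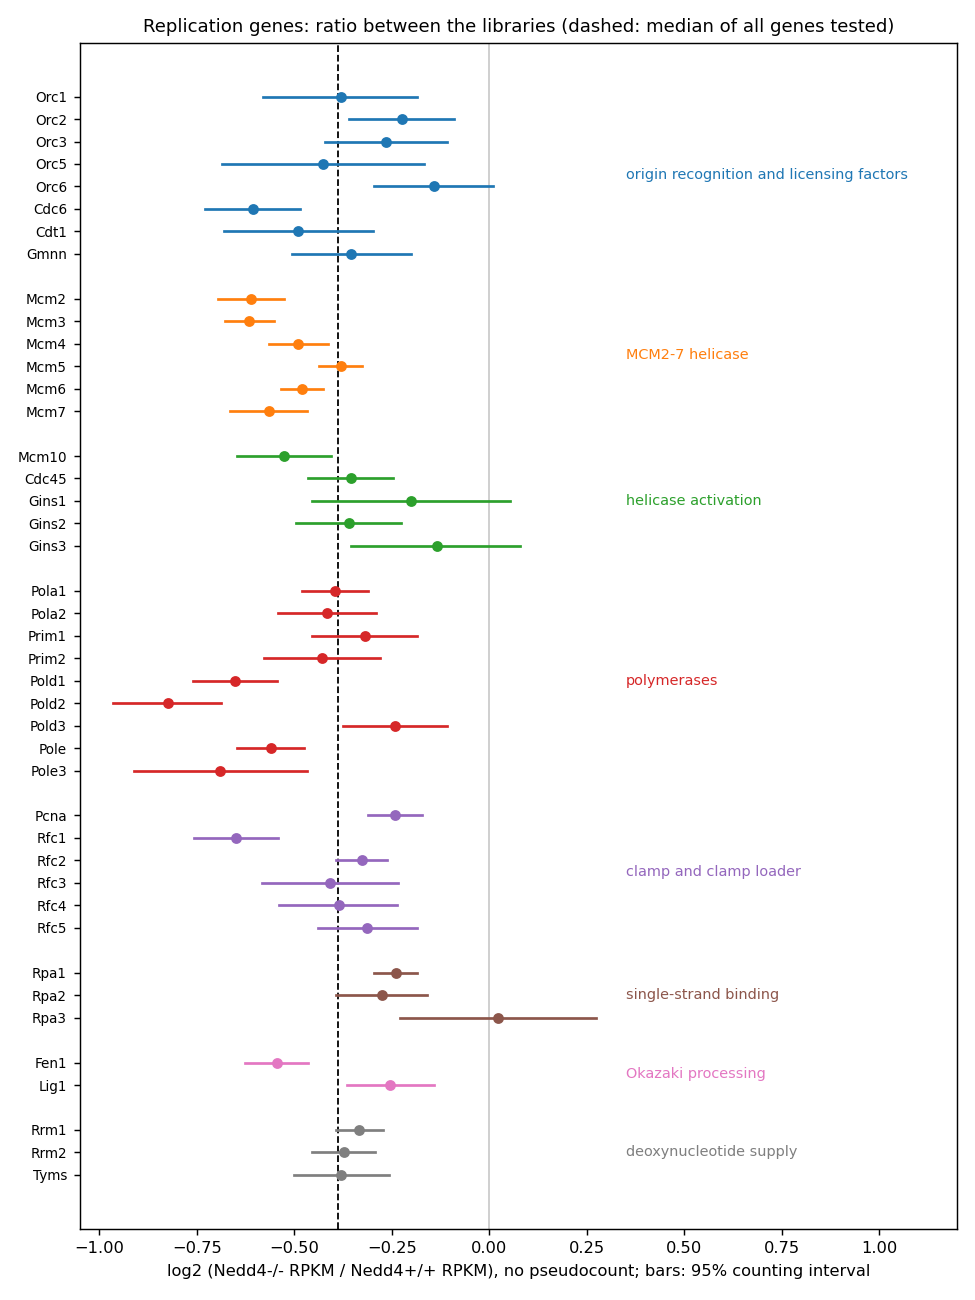
Log2 ratio of Nedd4-/- over Nedd4+/+ RPKM without pseudocount for each replication gene, with bars for the 95% counting interval and a dashed line at the median of all genes, -0.39. 5 of the 6 Mcm2 to Mcm7 intervals lie left of the line, while those of the ORC genes lie on it or to its right.

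Of the ORC genes, whose products mark origins, 4 of 5 lay above the median of all genes, Orc1 by only 0.01, and Orc5 lay below it. Orc2, at 17.6 and 15.0 RPKM in Nedd4+/+ and Nedd4-/- cells, and Orc6, at 16.6 and 15.0 RPKM, were the most abundant of the 5 ORC genes. Orc6 had a log2 ratio of -0.13, the highest of the licensing factors, and Orc2 one of -0.21. Orc3 stood at 9.19 and 7.65 RPKM (-0.24), Orc1 at 4.70 and 3.61 RPKM (-0.30) and Orc5 at 4.02 and 2.99 RPKM (-0.33). The order of the ORC genes was the same in both libraries, and the counting intervals of their ratios overlapped one another.

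Of the loading factors, Cdc6 stood apart from some ORC genes. Cdc6, the ATPase that joins ORC at the origin, was at 8.83 RPKM in Nedd4+/+ and 5.80 RPKM in Nedd4-/- cells. Its log2 ratio of -0.53 was the lowest of the licensing factors, and its counting interval of -0.73 to -0.48 did not overlap those of Orc2, Orc3 or Orc6. Cdt1, which brings the helicase, was at 7.22 and 5.14 RPKM (-0.42), and its interval of -0.68 to -0.30 included the median of all genes and overlapped those of Orc1, Orc2, Orc3 and Orc5. Its inhibitor Gmnn was at 24.0 and 18.8 RPKM (-0.34). Gmnn thus exceeded Cdt1 by 3.33 times in Nedd4+/+ and 3.66 times in Nedd4-/- cells. The median over the 8 licensing factors was -0.32, with 4 above and 4 below the median of all genes.

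The Mcm2 to Mcm7 genes had the lowest median ratio of the 8 roles, -0.50, and all 6 lay below the median of all genes, although Mcm5 (-0.38) lay just above it (-0.39) without added RPKM. Mcm3 stood at 51.1 RPKM in Nedd4+/+ and 33.4 RPKM in Nedd4-/- cells, a log2 ratio of -0.60. Mcm2 stood at 24.4 and 16.0 RPKM (-0.58) and Mcm7 at 20.5 and 13.8 RPKM (-0.53). Mcm6, the most abundant, was at 69.1 and 49.5 RPKM (-0.47), and Mcm4 at 27.5 and 19.6 RPKM (-0.47). Mcm5 was nearest to other genes, at 50.8 and 39.0 RPKM (-0.37). The counting interval of Mcm5, -0.44 to -0.33, included the median of all genes and did not overlap those of Mcm2, Mcm3 and Mcm7. Mcm5 stood ahead of Mcm3 in Nedd4-/- cells and just behind it in Nedd4+/+ cells. The most abundant subunit exceeded the least, Mcm7, by 3.37 times in Nedd4+/+ and 3.58 times in Nedd4-/- cells, although the ring holds 1 copy of each.

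The gap between helicase and licensing factors was -0.19 on the log2 scale, and between -0.22 and -0.16 under each other scale and filter that could change it. It is a difference of medians and was not tested. Every licensing factor but Orc6 had a counting interval that overlapped that of an Mcm gene. The median of all genes itself moved with level. Genes with a mean of 10 to 30 RPKM had a median of -0.40 (1752 genes) and those with 30 to 100 RPKM also -0.40 (495 genes). Genes with 3 to 10 RPKM had one of -0.34 (4063 genes). Replication genes in these ranges had medians of -0.34 (22 genes), -0.37 (7 genes) and -0.33 (13 genes). Mcm7 overlaps Ap4m1 and the microRNA genes Mir25, Mir93 and Mir106b, whose reads it may share.

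**Figure D3:**
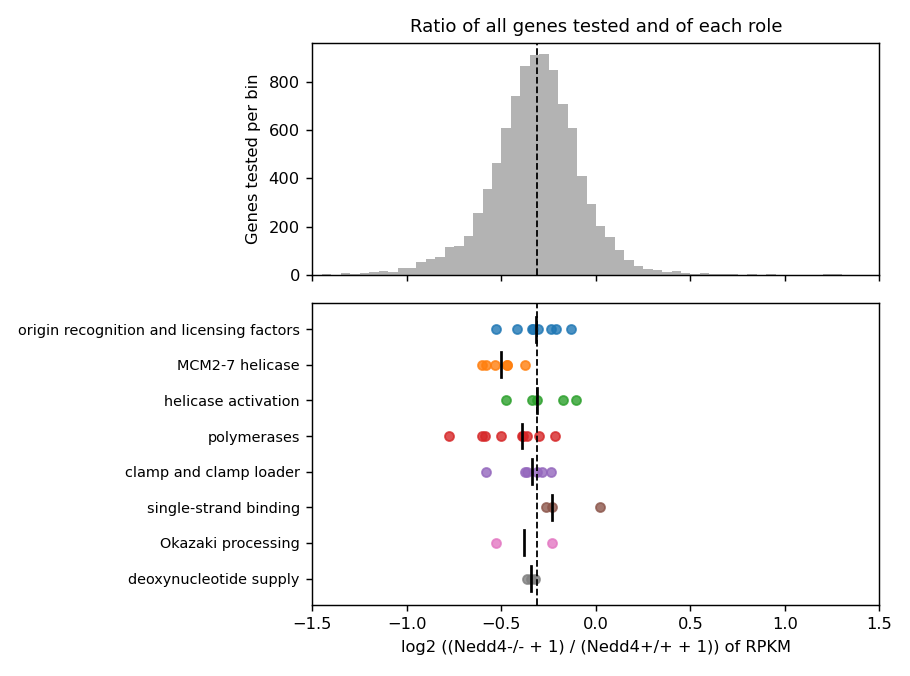
Top, histogram of the log2 ratio (1 RPKM added) of all 9405 genes between -1.5 and 1.5, and bottom, the same ratio for each replication gene by role, with a black bar at the median of the role. The dashed line marks the median of all genes, -0.31, and the Mcm2 to Mcm7 median lies furthest to its left at -0.50.

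Promoter sequence was examined because genes of this machinery are known to be induced together at S phase entry by E2F factors, and many cell cycle promoters carry CCAAT boxes. The stretches below are from RefSeq promoters of build GRCm38.p6, written 5′ to 3′ on the strand of the gene. They end 1 base before the annotated start site, except Rpa3, which ends 41 bases before it. They show helicase genes with and without an E2F-type motif, the loader gene Cdc6, genes of priming and of nucleotide supply, and the 1 gene not lower. Capitals mark the motifs TTTCCCGC, TTTGGCGC and TTCCCGCC, here called E2F-type, and CCAAT, each on either strand. Their reverse complements are GCGGGAAA, GCGCCAAA, GGCGGGAA and ATTGG.
Mcm5, chr8:75109349-75109508, plus strand: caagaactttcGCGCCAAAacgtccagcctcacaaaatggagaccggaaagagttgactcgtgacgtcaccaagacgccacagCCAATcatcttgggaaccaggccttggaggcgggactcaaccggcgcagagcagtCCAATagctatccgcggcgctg
Mcm6, chr1:128359706-128359865, minus strand: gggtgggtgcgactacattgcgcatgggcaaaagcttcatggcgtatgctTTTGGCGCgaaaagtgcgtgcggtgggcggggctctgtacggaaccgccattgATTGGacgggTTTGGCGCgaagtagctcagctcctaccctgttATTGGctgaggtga
Mcm2, chr6:88898781-88898960, minus strand: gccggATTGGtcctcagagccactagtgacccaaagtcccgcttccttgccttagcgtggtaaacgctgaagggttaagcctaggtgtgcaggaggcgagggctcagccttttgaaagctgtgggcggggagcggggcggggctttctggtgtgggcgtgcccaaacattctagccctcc
Cdc6, chr11:98907991-98908150, plus strand: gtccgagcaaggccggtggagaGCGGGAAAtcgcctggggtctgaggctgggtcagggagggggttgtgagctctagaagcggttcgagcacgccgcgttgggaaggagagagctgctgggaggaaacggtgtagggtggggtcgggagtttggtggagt
Pola1, chrX:93632156-93632315, minus strand: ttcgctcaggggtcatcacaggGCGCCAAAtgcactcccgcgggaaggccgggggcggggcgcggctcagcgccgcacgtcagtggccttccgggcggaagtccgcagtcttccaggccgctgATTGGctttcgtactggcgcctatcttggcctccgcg
Rrm1, chr7:102441585-102441694, plus strand: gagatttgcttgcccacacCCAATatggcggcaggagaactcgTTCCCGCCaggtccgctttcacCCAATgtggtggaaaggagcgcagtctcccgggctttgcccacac
Rpa3, chr6:8259182-8259251, minus strand: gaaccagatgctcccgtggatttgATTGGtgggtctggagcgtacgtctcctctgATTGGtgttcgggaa

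Of the 42 genes, 35 were in the promoter table, which covers 250 bases before to 50 bases after a start site. At least 1 of the 3 E2F-type motifs was found in 15 of these 35 (42.9%), against 3.69% of all 27025 genes in the table and 7.66% of the 6753 that were also compared here. TTTCCCGC and TTCCCGCC can overlap, as they did in Mcm3, Pold1 and Pold3. TTTCCCGC was found in 8 of the 35 genes, against 1.24% of all genes in the table and 2.71% of the 6753. TTTGGCGC was found in 5 (0.585% and 1.36%) and TTCCCGCC in 6 (2.52% and 5.12%). Mcm6 held 2 copies of TTTGGCGC, 110 and 47 bases before its start site. CCAAT was found in 22 of the 35 (62.9%), against 41.1% of all genes in the table and 43.7% of the 6753. Both kinds occurred together in 9 genes: Mcm3, Mcm5, Mcm6, Mcm7, Gins3, Pola1, Prim1, Rfc3 and Rrm1. Of the ORC genes only Orc3 had an E2F-type motif, whereas 4 of the 5 Mcm2 to Mcm7 genes in the table had one, the exception being Mcm2. The 15 genes with an E2F-type motif had a median log2 ratio of -0.37 and the 20 without one -0.34, with overlapping ranges of -0.60 to -0.11 and -0.78 to 0.02. A match is a stretch of letters, not evidence of binding.

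Genes that activate the helicase were spread on both sides of the median of all genes. Mcm10, which associates with the loaded ring, stood at 11.5 RPKM in Nedd4+/+ and 8.01 RPKM in Nedd4-/- cells, a log2 ratio of -0.48. Cdc45, a part of the active helicase, was at 26.3 and 20.6 RPKM (-0.34). Of the GINS subunits, Gins2 was at 7.63 and 5.94 RPKM (-0.31), Gins1 at 7.38 and 6.42 RPKM (-0.18) and Gins3 at 4.19 and 3.82 RPKM (-0.11). GINS genes stood well under their partners in the active helicase: Mcm6 exceeded Gins3 by 16.5 times in Nedd4+/+ and 13.0 times in Nedd4-/- cells.

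The polymerases held the widest spread of ratios, 0.56 between the extremes, and both extremes were subunits of polymerase delta. Pold2, its second subunit, was at 21.3 RPKM in Nedd4+/+ and 12.1 RPKM in Nedd4-/- cells. Its log2 ratio of -0.78 was the lowest of all 42 genes, and its counting interval was -0.97 to -0.69. Pold1, the catalytic subunit, was at 15.3 and 9.74 RPKM (-0.60). Pold3, an accessory subunit, was at 9.42 and 7.97 RPKM (-0.22), with an interval of -0.37 to -0.11 that did not overlap those of Pold1 and Pold2. Pold2 thus exceeded Pold3 by 2.27 times in Nedd4+/+ and 1.51 times in Nedd4-/- cells. Pold2 overlaps the neighbouring gene Aebp1.

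Pole, the catalytic subunit of polymerase epsilon, was at 11.1 and 7.56 RPKM (-0.50), and the small subunit gene Pole3 at 7.23 and 4.48 RPKM (-0.59). The 4 genes of polymerase alpha and primase lay close together, between -0.39 and -0.30. Pola1, the catalytic subunit, was at 14.0 and 10.7 RPKM (-0.37), and Pola2 at 14.5 and 10.9 RPKM (-0.39). The primase genes Prim1 and Prim2 were at 18.8 and 15.0 RPKM (-0.30) and at 12.7 and 9.42 RPKM (-0.39). Their order was the same in both libraries and their intervals overlapped.

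The clamp was less low than its large loader subunit. Pcna stood at 70.4 RPKM in Nedd4+/+ and 59.6 RPKM in Nedd4-/- cells, a log2 ratio of -0.24. Pseudogenes of Pcna and Tyms are annotated (Pcna-ps1, Pcna-ps2, Tyms-ps), and how reads with several matches were treated is not given in the sources used here. Rfc1, the large subunit, was at 11.1 and 7.11 RPKM (-0.58), with an interval of -0.76 to -0.54. The small subunits lay higher, with Rfc2 at 24.9 and 19.8 RPKM (-0.31), Rfc3 at 14.0 and 10.5 RPKM (-0.38), Rfc4 at 19.5 and 14.9 RPKM (-0.36) and Rfc5 at 11.7 and 9.45 RPKM (-0.29). The interval of Rfc1 did not overlap those of Rfc2 and Rfc5 and overlapped that of Rfc3. The order of the 5 RFC genes was the same in both libraries.

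All 3 RPA genes lay above the median of all genes, the only role of which this held. Rpa3, the smallest subunit, was at 11.0 RPKM in Nedd4+/+ and 11.2 RPKM in Nedd4-/- cells, and its log2 ratio of 0.02 was the highest of the 42 genes. Its counting interval of -0.23 to 0.27 was among the widest, since its transcript has only 670 nt. Rpa1, the large subunit, was at 31.8 and 26.9 RPKM (-0.23) and Rpa2 at 20.7 and 17.1 RPKM (-0.26).

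The Okazaki fragment genes stood on opposite sides. Fen1, the flap nuclease, was at 41.8 RPKM in Nedd4+/+ and 28.6 RPKM in Nedd4-/- cells (-0.53), and Lig1, the ligase, at 13.5 and 11.3 RPKM (-0.23). Their intervals, -0.63 to -0.46 and -0.37 to -0.14, did not overlap. Fen1 overlaps Tmem258 and Lig1 overlaps Zswim9, and each may share reads of its neighbour. Such an overlap is annotated for 17 of the 42 genes, among them Orc1, Orc3, Cdc45, Rfc4 and Rpa1. The genes of deoxynucleotide supply lay closest together, with Rrm2 at 38.2 and 29.5 RPKM (-0.36), Tyms at 11.7 and 8.96 RPKM (-0.35) and Rrm1 at 35.3 and 28.1 RPKM (-0.32). Rrm2 exceeded Rrm1 by 1.08 times and 1.05 times.

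Levels of the kilobase upstream of each gene were deposited as well, and read transcription around promoters. Among the 42 windows the highest was that of Orc1, at 3.95 RPKM in Nedd4+/+ and 2.80 RPKM in Nedd4-/- cells, or 84.1% and 77.6% of the level of Orc1 itself. Next came Cdt1 at 2.76 and 1.97 RPKM and Orc2 at 2.57 and 1.52 RPKM. Among the 8 windows whose mean reached 1 RPKM, 7 hold another annotated gene: Prpf38a for Orc1, Gm15834 for Orc2, Rars2 for Orc3, Vps35 for Orc6, Prkdc for Mcm4, Ap4m1 for Mcm7 and Ufd1 for Cdc45. The exception was Cdt1. In all, 19 of the 42 windows hold another gene. Without a stated strand, reads of such a neighbour cannot be told apart from upstream transcription of the replication gene.

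The direction of the upstream difference went with the level of the window, as it did over all genes. Among those 8 windows of 1 RPKM and above, 7 were lower in Nedd4-/- cells, beside 78.5% of all such windows, with a median log2 ratio of -0.32 (0.1 RPKM added), beside -0.28 over 2109 windows of all genes. Of 24 windows between 0.2 and 1 RPKM, 19 were higher in Nedd4-/- cells, beside 82% of all such windows, with a median of 0.43, beside 0.57 over 9728 windows. Over the 32 windows reaching 0.2 RPKM, 2 were at least 2-fold higher, beside 19.8% of all windows, and 0 at least 2-fold lower, beside 0.794%. The 2 were Rpa2, at 0.215 and 0.610 RPKM, and Rpa3, at 0.386 and 0.938 RPKM. Pcna had the lowest ratio, at 0.449 and 0.175 RPKM (-0.998). The window of Rpa3 holds the gene Umad1 and that of Pcna holds Cds2, whose reads they may share, while that of Rpa2 holds no other gene. The window of Gins1 was at 0.00155 and 0.151 RPKM and that of Fen1 was listed at 0 in both libraries. A count of 0 allows up to 3 read pairs, which is 0.0722 RPKM in Nedd4+/+ and 0.0983 RPKM in Nedd4-/- cells.

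**Figure D4:**
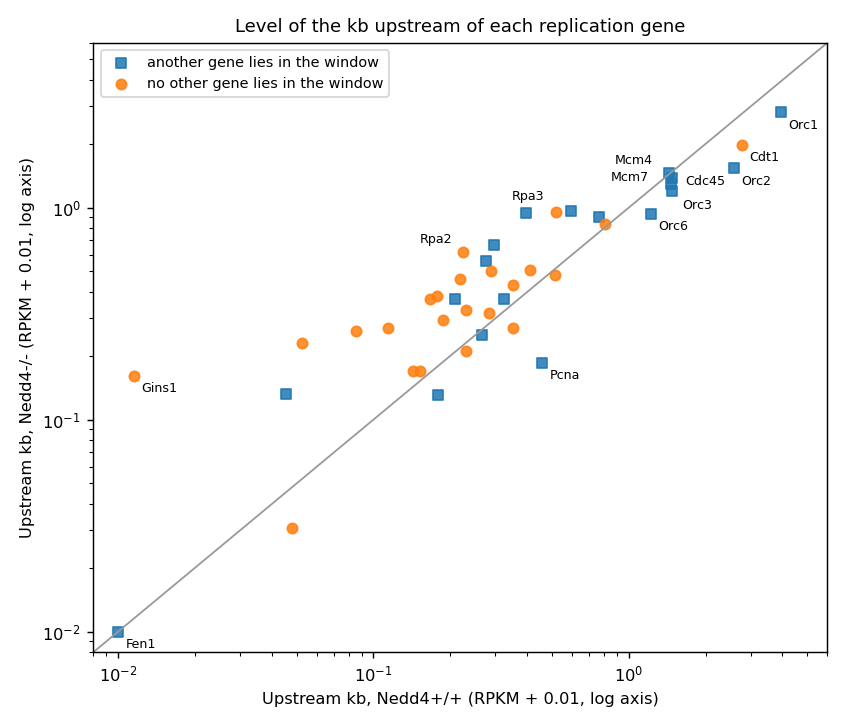
Level of the kilobase upstream of each replication gene in Nedd4+/+ (horizontal) and Nedd4-/- cells (vertical), both in RPKM + 0.01 on log axes, with squares where another gene lies in the window, circles where none does, and a line of equal levels. Windows above 1 RPKM lie on or under the line, led by Orc1, and most windows below 1 RPKM lie above it.

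Other genes of replication gave a similar picture with 1 exception. Of 37 further symbols 34 were in the tables, with a median log2 ratio of -0.35, 20 below and 14 above the median of all genes and 0 at least 2-fold lower. Pole2, the second subunit of polymerase epsilon, was 1 of 34 at least 2-fold higher, beside 0.138% of all genes. It was at 7.64 RPKM in Nedd4+/+ and 17.7 RPKM in Nedd4-/- cells (1.11), opposite to Pole and Pole3. Pole2 overlaps Klhdc1, whose reads it may share. Gins4, the remaining GINS subunit, was lowest at 9.39 and 5.88 RPKM (-0.59), below Gins1, Gins2 and Gins3, followed by Chaf1b, a histone chaperone subunit, at 7.20 and 4.62 RPKM (-0.55). Cdc7, the kinase that triggers helicase activation, was at 7.84 and 7.56 RPKM (-0.05).

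Regulators of S phase entry had a median of -0.29 over 19 genes, with 9 of them below the median of all genes and 0 past a 2-fold difference either way. The lowest were Uhrf1, of DNA methylation maintenance, at 36.2 and 23.1 RPKM (-0.63) and the factor E2f2 at 6.24 and 3.77 RPKM (-0.60). The highest were E2f8, at 3.62 and 3.63 RPKM (0.00), and Skp2 at 2.60 and 2.57 RPKM (-0.01). Nucleotide supply beyond the 3 members had a median of -0.32 over 15 genes, and the lowest was Samhd1, which breaks down deoxynucleotides, at 21.6 and 13.9 RPKM (-0.61). Mitosis genes had a median of -0.36 over 25 genes, from Mki67 at 65.3 and 38.0 RPKM (-0.77) to Ccnb1 at 14.2 and 13.5 RPKM (-0.06). Core histone genes, which are transcribed in S phase, had the lowest median of these lists, -0.81. Of 58, 5 were at least 2-fold lower, beside 1.15% of all genes. Relative to the median of all genes, 19 were at least 1.5-fold lower, beside 2.05%. These counts were chosen after their values were seen. Because core histone genes are close copies, the share of reads given to each is uncertain. The difference between histone and replication genes was not tested.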

How the data were processed

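RNA was measured in 1 Nedd4+/+ and 1 Nedd4-/- library, grouped by title. The authors deposited a level in RPKM, per the file headers, with 1 RefSeq transcript for each gene. The submitters' processing notes list TopHat, Cufflinks and mm9, without version or role. Strand and counting settings: not given in the sources used here. The deposited upstream values are a ratio, as the values show: window level over the gene's RPKM plus 0.0001. Multiplying back gave whole numbers of bases in a 1000 nt window (within 0.05 bases) for 99.99% of 15458 and 100% of 13436 windows, which also gave the depth. Read pairs (202 bases) were recovered with transcript lengths of GENCODE M21 (GRCm38), known for 97.1% of genes. They need not be whole.

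Ratios used 1 RPKM added and a minimum mean of 1 RPKM (upstream: 0.1 and 0.2). With 1 library a group no p-value was computed. These scales understate differences of low genes. Of the fold rules, only the one relative to the median of all genes was tested on simulated data, together with the ratio. Members, lists and thresholds were chosen with earlier results of these data known. Named are all members, Nedd4 and the 2 highest and 2 lowest genes of each further list, of which some are given and 1 is not reported here. Xist, Ddx3y and the histone counts were chosen after their values were seen. The reference build differs from mm9 and served for names, neighbours, lengths and promoters. Python 3.11.15, pandas 2.3.3, scipy 1.17.1 and matplotlib 3.10.9 were used.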

Additional observations from a re-analysis of the deposited data

How the results depend on the processing

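No replication gene was at least 2-fold lower under any of the 6 other scales and filters. The gap between helicase and licensing factors kept its sign under all of them. Subtraction of the median of all genes and removal of the minimum level could not change that gap. Other values depended on the scale. The log2 ratio of Nedd4 was -1.96 without pseudocount and -1.23 relative to the median of all genes. The median of the replication genes was -0.38 with a pseudocount of 0.1 RPKM, -0.38 without one, -0.041 relative to the median of all genes and -0.019 with libraries rescaled to the same sum. For the other replication genes these values were -0.39, -0.40, -0.040 and -0.034. With no minimum level, 6 members were at least 1.5-fold lower relative to a median of 0.02 over all 23288 genes, beside 5.43% of these genes. Below that median, which by definition splits all genes evenly, lay 42 of 42, with Rpa3 at 0.0203 against 0.0217. It takes in the genes under 1 RPKM that the comparison otherwise leaves out. The count of 42 is not taken as a result about replication genes. The number below the median was 21 with a pseudocount of 0.1 RPKM, 19 without one and 16 with a minimum of 5 RPKM. The upstream median of 0.19 was -0.32 for windows of 1 RPKM or more and -0.22 relative to all windows. Depth limits the ratios of Orc5, Gins1 and Rpa3, whose counting intervals span about 0.5. No paired analysis was possible because each group has 1 library. For the same reason no library could be left out.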

Other observations

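Among the 42 replication genes the log2 ratio went with base composition. Pearson r between GC content of the transcript and log2 ratio was -0.57 (Spearman rho -0.51) over 42 genes, and -0.09 (-0.08) over 9231 genes of the whole table. These are descriptions across genes that share both libraries. The 4 replication genes with a GC content of 55% or more, Cdt1, Mcm2, Pold1 and Pold2, had a median ratio of -0.59, where 2164 genes of that range had -0.32. The 8 with less than 45%, Orc2, Orc3, Orc5, Pola1, Prim1, Rfc4, Rpa3 and Rrm1, had a median of -0.31, beside -0.29 over 2241 genes. Rpa3 had the lowest GC content (40.4%) and the highest ratio, and Pold1 the highest GC content (60.7%) and the second lowest ratio. This relation was noticed after the values were seen and was not tested.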
